A study of Capra hircus with 2 samples.

Results

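The facilitative glucose transporters SLC2A1 (GLUT1), SLC2A3 (GLUT3) and SLC2A4 (GLUT4) were followed in goat skeletal muscle at a fetal and a juvenile stage. They were taken as the rows with the accessions NM_174602, NM_174603 and NM_174604, which are cattle RefSeq transcripts of these genes in that order. All 3 were found in both libraries, among 11663 accessions listed in either one. Neither file pairs an accession with a gene name, so the names rest on the accessions and could not be checked within the data. The transcripts were from longissimus thoracis, a muscle of the back, of Chinese Xuhuai goats (Capra hircus). The fetal library came from embryos at day 90 of a gestation period of 150 days, and the other library came from goats aged 6 months. No treatment or genetic change is named for either stage. Each stage had 1 library, and neither the number of animals in it nor how the 6-month muscle was taken is given in the sources used here, where the 6-month entry repeats the embryo sampling text. Every interval below is therefore a 95% interval for counting error within these libraries, and there is no replicate check and no p-value.

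Facilitative glucose transporters are membrane proteins that let glucose pass down its concentration gradient without using energy. GLUT1 is the widely expressed transporter of basal uptake, abundant in human red cells, in the endothelium of barrier tissues and in many growing or fetal tissues. GLUT3 has a high affinity for glucose and is best known from neurons, placenta and early embryos. GLUT4 is the insulin-responsive transporter of muscle fibres and adipocytes: at rest it is held in vesicles inside the cell, and insulin or contraction brings it to the surface. Only transcript levels were measured here, not protein, its place in the cell or glucose uptake.

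The fetal library held 12811117 unique reads over 11393 accessions and the 6-month library 9144138 over 10850. Levels are given as RPKM, reads scaled to the length of the transcript and to the read total of the library, which allows genes of different length to be compared. On this scale the 2 libraries are shifted against each other: 8201 accessions reached an RPKM of 1 in each library, and their log2 ratios, fetal over 6-month, had a median of 0.58. Differences between libraries were therefore also read against that shift.

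The make-up of the 3 transporters turned over between the libraries. In the fetal library SLC2A1 and SLC2A3 were at similar levels on the deposited transcript lengths, and SLC2A4 was the lowest of the 3. At 6 months SLC2A4 was far above both others. SLC2A1 and SLC2A3 were about 5-fold lower at 6 months than in the fetal library, and SLC2A4 was about 10-fold higher.

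SLC2A1, the basal transporter, had 687 reads over its 2533 bases in the fetal library, an RPKM of 21.2 (19.6 to 22.8). At 6 months it had 93 reads, an RPKM of 4.02 (3.24 to 4.92). The level was thus higher in the fetal library, with intervals that lay far apart, and the ratio was 5.27-fold (4.24 to 6.62).

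SLC2A3, the high-affinity transporter, had 1069 reads over 4091 bases in the fetal library, an RPKM of 20.4 (19.2 to 21.7). At 6 months it had 163 reads, an RPKM of 4.36 (3.71 to 5.08). It was again the fetal library that was higher, by 4.68-fold (3.97 to 5.55). This ratio and that of SLC2A1 could not be separated at this depth.

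SLC2A4, the insulin-responsive transporter, had 183 reads over 2642 bases in the fetal library, an RPKM of 5.41 (4.65 to 6.25). At 6 months it had 1333 reads, an RPKM of 55.2 (52.3 to 58.2). Here the 6-month library was higher, by 10.2-fold (8.74 to 12.0). The fetal muscle was thus not without SLC2A4 transcript. The fetal level of SLC2A4 was low beside SLC2A1 and SLC2A3 in the same library and beside its own level at 6 months.

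**Figure D1:**
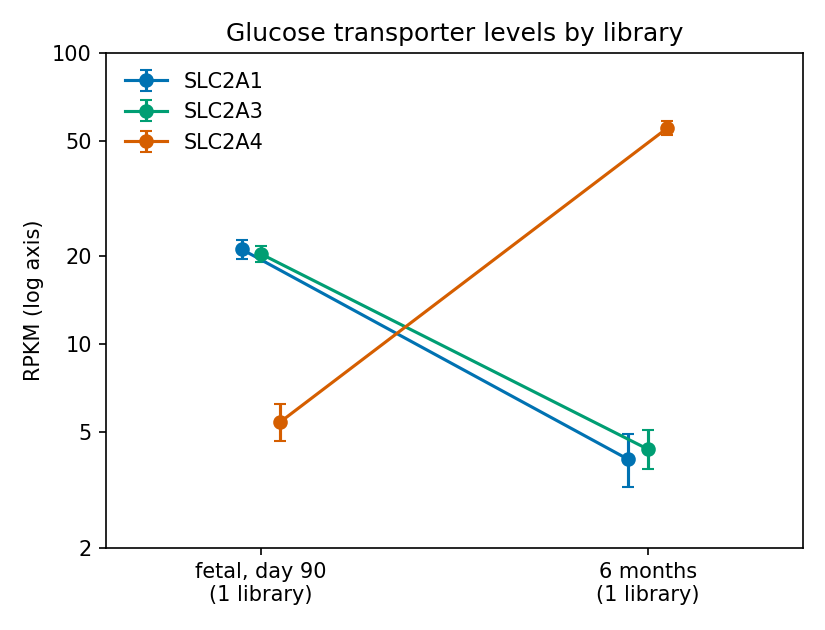
RPKM of SLC2A1, SLC2A3 and SLC2A4 in the fetal (day 90) and the 6-month library, on a log axis; each point is 1 library and the bars are exact Poisson 95% intervals of the read count, so they show counting error only. The lines cross: SLC2A1 and SLC2A3 go from 21.2 and 20.4 to 4.02 and 4.36, and SLC2A4 goes from 5.41 to 55.2.

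The order of the levels within each library does not depend on how the libraries are scaled to each other. In the fetal library the RPKM of SLC2A1 was 1.04 times that of SLC2A3 (0.942 to 1.14). On the deposited lengths these neighbours thus did not differ beyond counting error. Their coverage was unlike, 97.75% for SLC2A1 and 83.3% for SLC2A3, and the ratio was not recomputed on covered lengths. SLC2A1 stood 3.92-fold (3.32 to 4.63) and SLC2A3 3.77-fold (3.22 to 4.44) above SLC2A4. At 6 months the RPKM of SLC2A3 was 1.09 times that of SLC2A1 (0.836 to 1.42), again within counting error on the deposited lengths. SLC2A4 was then 13.7-fold (11.1 to 17.1) above SLC2A1 and 12.7-fold (10.8 to 15.0) above SLC2A3. All these intervals leave out any difference in how fully goat reads cover each cattle transcript. At 6 months coverage was 84.4% for SLC2A1, 71.1% for SLC2A3 and 77.25% for SLC2A4.

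Between the libraries, the ratio of SLC2A4 to SLC2A1 was 53.8-fold larger at 6 months than in the fetal library (40.9 to 70.9). That of SLC2A4 to SLC2A3 was 47.8-fold larger (37.9 to 60.3). Both comparisons set the insulin-responsive transporter against a basal one, and transcript length and library size cancel in them. The ratio of SLC2A3 to SLC2A1 was 1.13 times as large at 6 months (0.852 to 1.496). This interval includes 1, so a difference in change between these 2 genes was not detectable at this depth.

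In the fetal library SLC2A1 made up 45.1% of the summed RPKM of the 3 transporters, SLC2A3 43.4% and SLC2A4 11.5%. At 6 months the shares were 6.32%, 6.86% and 86.8%. As plain reads, which favour the longer SLC2A3 transcript, SLC2A4 took 183 of 1939 reads in the fetal library (9.44%, exact Clopper-Pearson interval 8.17% to 10.8%). It took 1333 of 1589 reads at 6 months (83.9%, 82.0% to 85.7%). The summed RPKM changed far less than its make-up. It was 47.0 ± 1.10 (counting SE) for the fetal muscle. The 6-month sum was 63.5 ± 1.60, a ratio of 1.35. This ratio depends on the scaling and became 2.02 when the libraries were centred on their median ratio, whereas the shares are the same under any scaling between libraries. SLC2A1 and SLC2A3 together came to 41.6 ± 1.02 in the fetal library and 8.37 ± 0.538 at 6 months.

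**Figure D2:**
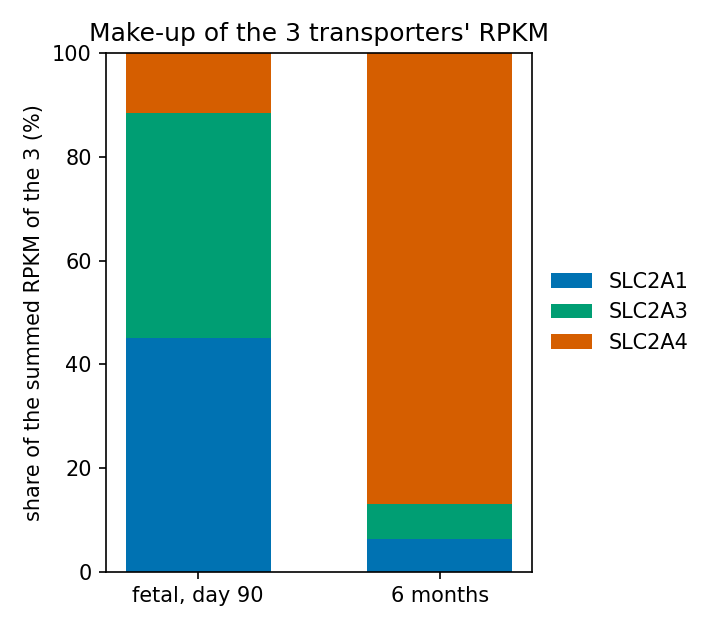
Share of each transporter in the summed RPKM of the 3, in percent, for the fetal and the 6-month library (1 library each, no error bars). SLC2A4 takes 11.5% of the fetal bar and 86.8% of the 6-month bar.

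The places of the transporters among all listed transcripts differed between the libraries. By RPKM, SLC2A1 ranked 3147 of the 11393 accessions listed in the fetal library (percentile 72.4) and 6015 of the 10850 listed at 6 months (percentile 44.6). SLC2A3 went from rank 3232 (percentile 71.6) to rank 5841 (percentile 46.2). SLC2A4 went the other way, from rank 6822 (percentile 40.1) to rank 1116 (percentile 89.7). Ranks within a library need no scaling between libraries, and they moved in the same directions as the RPKM values.

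Accessions that reached an RPKM of 1 in one library or the other were compared by the difference in log2(RPKM + 1), and a difference of at least 1 unit was counted as higher in one library. The added 1 understates the change of low transcripts. By this rule all 3 transporters were called, SLC2A1 (2.14) and SLC2A3 (1.998) as higher in the fetal library and SLC2A4 (-3.13) as higher at 6 months. Of 9705 accessions compared, 44.6% were called in one direction or the other, 35.1% as higher in the fetal library and 9.46% as higher at 6 months. The median difference was 0.61 over all accessions compared (quartiles -0.14 and 1.30). Over the 3 transporters the differences ran from -3.13 to 2.14, and their median of 1.998 is the SLC2A3 value, which does not describe SLC2A4. A call of higher in the fetal library was thus common, and that SLC2A1 and SLC2A3 met it sets neither apart. Among the 4051 accessions of a mean RPKM of 10 to 100, the band that holds all 3 transporters, 43.7% were called, 32.4% toward the fetal library and 11.3% toward 6 months.

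The size of the differences places the transporters more closely. A difference toward the fetal library as large as that of SLC2A1 was found for 859 accessions (8.85% of those compared), and as large as that of SLC2A3 for 1054 (10.9%), each gene counted with itself. A difference toward 6 months as large as that of SLC2A4 was found for 104 (1.07%). Within the band of a mean RPKM of 10 to 100 these shares were 10.1%, 11.8% and 1.28%. There were 161 other accessions at least as high as SLC2A1 in the fetal library and no higher than it at 6 months, and 184 for SLC2A3. In the converse sense 19 others matched or exceeded SLC2A4. Within 0.25 log2 units of the same level in both libraries lay 60 other accessions for SLC2A1, 69 for SLC2A3 and 9 for SLC2A4. The files give no gene names for these neighbours, which are left unnamed, and their likeness rests on 2 libraries.

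**Figure D3:**
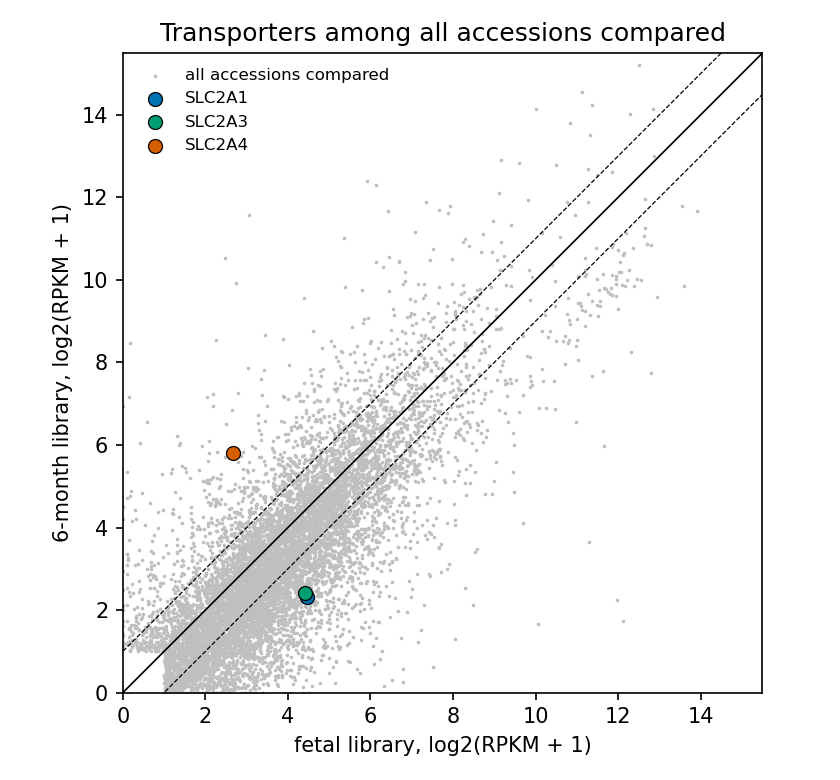
Level of each of the 9705 accessions compared, as log2(RPKM + 1), in the fetal library (x axis) and the 6-month library (y axis), with the 3 transporters in colour. The solid line marks equal levels and the dashed lines a difference of 1 unit; SLC2A1 and SLC2A3 nearly overlap below the lower dashed line and SLC2A4 lies above the upper one.

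The directions were the same under the deposited RPKM and 4 other scalings between libraries. All 4 lowered the fetal level relative to the 6-month level, so a change of direction was possible for SLC2A1 and SLC2A3 only. Under the scaling that favoured the fetal library least, centring on a trimmed mean ratio, the log2 ratio of fetal to 6-month level was 1.82 for SLC2A1 and 1.65 for SLC2A3, against 2.40 and 2.23 on the deposited RPKM. That of SLC2A4 was -3.93, against -3.35. Taken relative to the other transcripts, the lower level of SLC2A1 and SLC2A3 at 6 months was thus smaller than the deposited values give and the higher level of SLC2A4 was larger.

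**Figure D4:**
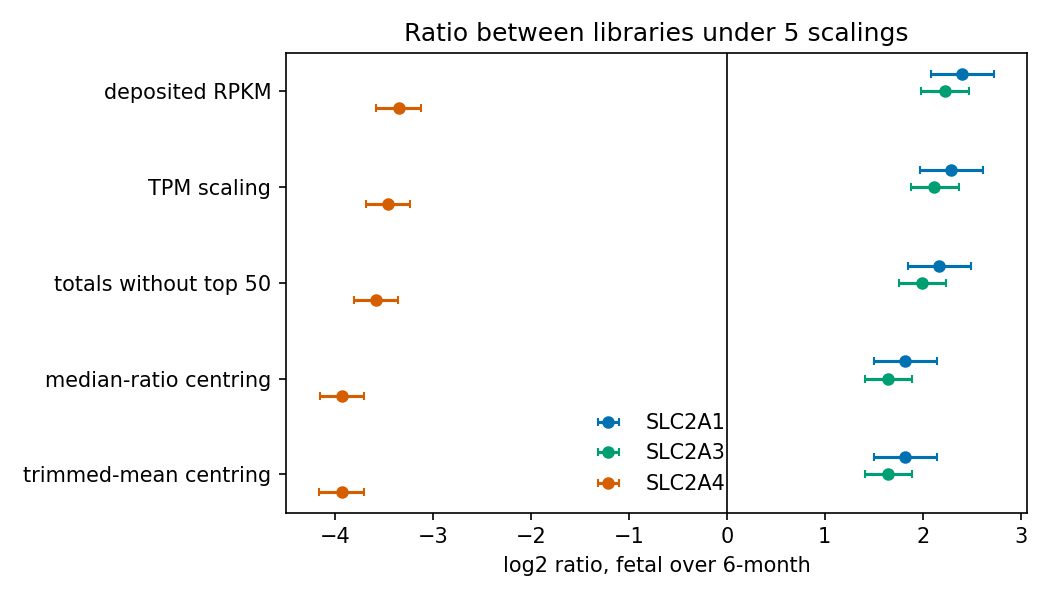
Log2 ratio of fetal to 6-month level for each transporter under the deposited RPKM and 4 other scalings between libraries; points are ratios of 1 library to 1 library and bars are exact 95% intervals for counting error. SLC2A1 and SLC2A3 stay right of 0 and SLC2A4 stays left of it in all 5, between -3.35 and -3.93.

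The deposited coverage gives the part of a transcript with at least 1 read, not how the reads are spread along it. SLC2A1 was covered over 97.75% of its bases in the fetal library and over 84.4% at 6 months, SLC2A3 over 83.3% and 71.1%, and SLC2A4 over 69.1% and 77.2%. Within each gene the library read more deeply had the fuller coverage. Depth came to 24.4 and 3.30 read-bases per base for SLC2A1, 23.5 and 3.59 for SLC2A3 and 6.23 and 45.4 for SLC2A4, in the fetal and 6-month library. Coverage was therefore set beside that of other accessions in the same library whose depth lay within 20% of the gene's own. SLC2A1 was covered more fully than 97.0% of 997 such accessions in the fetal library and 94.8% of 872 at 6 months. SLC2A3 was near the middle, above 41.5% of 1000 and 51.7% of 882.

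SLC2A4 was covered less fully than most. It was above 30.5% of 972 accessions in the fetal library and above 14.4% of 397 at 6 months, where their median coverage was 89.5%. At 6 months 601 bases of its transcript had no read at 45.4 read-bases per base, and in the fetal library 817 bases had none. What lies in the bases without reads was not tested. With each length reduced to its mean covered part, the share of SLC2A4 was 13.0% in the fetal library and 88.2% at 6 months. The comparison of SLC2A4 between libraries is unaffected by length.

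**Figure D5:**
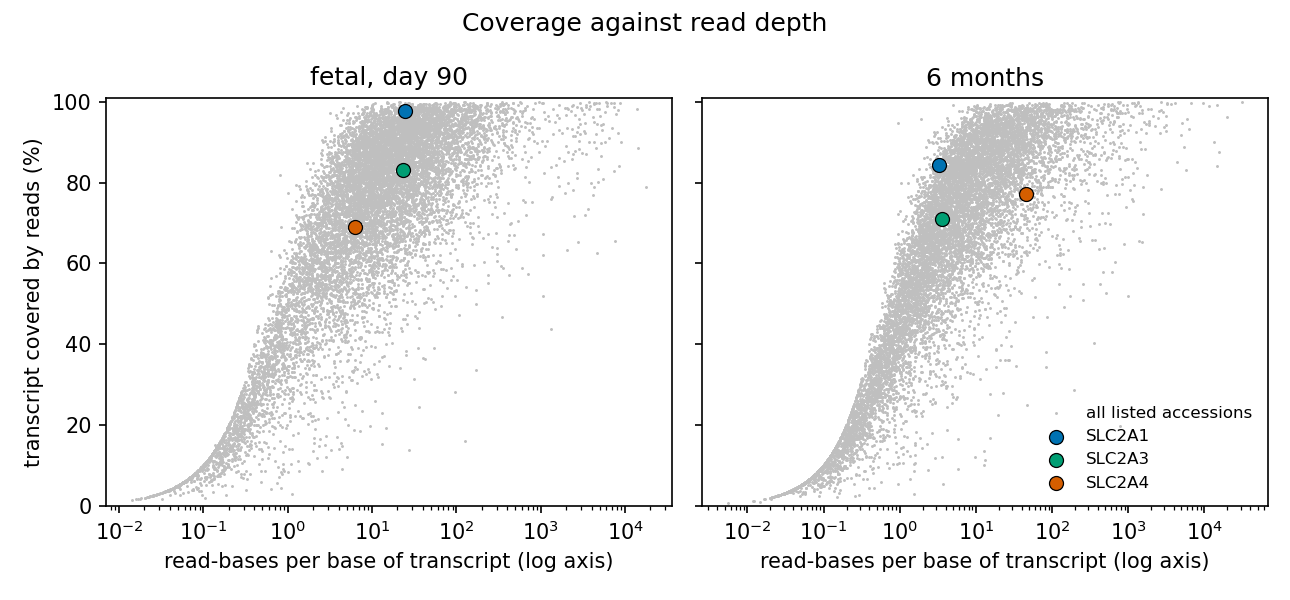
Percent of each transcript covered by reads against read depth (read-bases per base, log axis) in the fetal library (left) and the 6-month library (right), for all listed accessions (grey) and the 3 transporters. SLC2A1 lies at the upper edge of the cloud in both panels, and SLC2A4 lies low in the cloud at 6 months, at 77.2% and a depth of 45.4.

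Which cells of the muscle carried these transcripts was not measured. In RNA from whole tissue, fewer cells of a type and less RNA per cell cannot be told apart, and marker genes of red cells, endothelium, nerve, adipocytes and muscle fibres were not looked up, because no table pairing these cattle accessions with gene symbols was used here. For the same reason the other genes of insulin signalling, GLUT4 vesicle traffic and glucose phosphorylation were not described. With 1 library per stage, the stage and any other difference between the libraries cannot be told apart.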

How the data were processed

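RNA sequencing of 1 fetal and 1 6-month library of goat longissimus thoracis was used. For every RefSeq accession, the deposited tables hold a unique read count, a length, the percent of the transcript covered and an RPKM value, per the file headers. The sources used here do not name the aligner, counting rules, strand or build. The deposited counts summed to the header totals, and every RPKM was recovered from them to 1 part in 1000000, so an accession not listed had 0 reads. In accessions with 1 read the covered stretch had a median of 90 bases, used as the length 1 read spans.

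The members, the gene lists and the naming rule were chosen with earlier results of these data known. The rule named the 3 transporters, and other genes only with a symbol. The gene table used here holds goat RefSeq accessions (assembly ARS1.2), which cattle accessions cannot match, and no table of cattle accessions was used. The gene lists, cell marker lists and neighbours were therefore not named, and no genomic position or sequence is shown.

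From the counts, ratios of read shares were given exact conditional binomial 95% intervals, ratios of ratios exact conditional odds ratio intervals, and RPKM values exact Poisson intervals. These cover counting error only, since each stage had 1 library. They would be too narrow where PCR duplicates are among the counted reads, since duplicates are not separate molecules. No p-value was computed. Calls used log2(RPKM + 1), a minimum RPKM of 1 in one or the other library and a difference of at least 1. For calls under another scaling, the shift was divided evenly between the libraries. Calls and intervals were tested on simulated data that held counting error only, around a shared profile with known changes in some accessions. The simulation had no spread between animals and no general shift between libraries. It therefore does not measure how often calls in the real data are wrong. Alternatives covered pseudocount, threshold, filter, scaling and length. The software was SciPy 1.17.1, NumPy 2.4.6 and pandas 2.3.3 under Python 3.11.15, with matplotlib 3.10.9 for plots.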

Additional observations from a re-analysis of the deposited data

How the results depend on the processing

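No paired analysis was possible because each stage has 1 library, and for the same reason no library could be left out. None of the 18 alternative values of the 3 log2 ratios between libraries changed direction, and 9 of them stayed within counting error of the reported value. The other 9 moved beyond it. Adding a constant to both levels cannot change a direction. The scalings all shifted the ratios toward 6 months, so SLC2A4 could not have changed direction under any of them. Only the scalings of SLC2A1 and SLC2A3 could have reversed a ratio. Use of log2(RPKM + 5) shrinks differences between libraries by construction, most where levels are low. With it the log2 ratio of fetal to 6-month level was 1.54 for SLC2A1, 1.44 for SLC2A3 and -2.53 for SLC2A4. Centred on the median ratio it was 1.82, 1.65 and -3.93, and centred on the trimmed mean ratio 1.82, 1.65 and -3.93, since both remove the general shift between libraries. The share of SLC2A4 in the 3 transporters moved from 11.5% to 13.0% (covered length) and to 9.44% (reads not divided by length) in the fetal library, and from 86.8% to 83.9% (reads not divided by length) at 6 months. The ratios between genes across libraries cannot change with length, which cancels in them, so those alternatives test nothing. Leaving out the filter cannot change a call of these genes either, since each exceeds the minimum. Depth limited SLC2A1 most, with 93 reads at 6 months. All 3 transporters were called under each pseudocount and scaling, and 2 of them at a threshold of 2 log2 units, which SLC2A3 missed at 1.998.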
